A study of Mus musculus with 2 samples.

Results

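The E14.5 dorsal cerebral wall p300 peaks examined here lie at 3 genes that encode zinc finger transcription factors, Zeb1, Zeb2 and Zbtb20. A peak was assigned to a gene when its midpoint fell inside the gene body or within 500 kb of the transcription start site, taking the GENCODE vM1 transcript with the longest coding sequence. By this rule 15 of the 6629 peaks in the deposited list belonged to the 3 genes, of which 6 were at Zeb1, 6 at Zeb2 and 3 at Zbtb20. No peak was shared between the genes.

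The study profiled chromatin from untreated neocortical tissue of Swiss Webster mouse embryos at embryonic day 14.5, with the hippocampal primordium, cortical hem and choroid plexus dissected away. The co-activator p300 was precipitated with a polyclonal antibody, C-20, and chromatin of the same tissue served as the input. There was 1 p300 library and 1 input library, so no value below has a replicate error and no test compares samples. The list gives peak positions only, with no height or read count, so the depth behind a single peak is unknown, and a stretch without a peak may still have carried weaker signal. Peaks at exons and within 2.5 kb of annotated start sites had been removed by the authors, and p300 at the promoters of the 3 genes is therefore largely outside these data. The tissue holds progenitors and neurons together, and which of them carried a given peak was not measured.

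p300 is a histone acetyltransferase that transcription factors recruit to active enhancers. Zeb1 and Zeb2 are paralogs with a cluster of zinc fingers near each end of the protein and a homeodomain-like stretch between them, and both bind the E-box CACCTG, mostly as repressors that work with CtBP. In the embryonic cortex Zeb1 is known as a factor of radial glia that holds back their differentiation, while Zeb2 acts in postmitotic neurons, from which it controls the timing of neuron and glia production. Zbtb20 belongs to the BTB zinc finger family of repressors and is best known for the specification of hippocampal CA1 neurons, with further roles in late-born cortical neurons and astrocytes.

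None of the 3 genes passed the genome-wide test for more p300 peaks than the length of its window predicted. The windows of Zeb1 and Zeb2 each spanned 1.00 Mb, in which 2.59 peaks would be expected from the genome-wide density of 2.59 peaks per Mb of assembled sequence. Each held 6 peaks, a fold of 2.32 (one-sided exact binomial test, p = 0.0483 before and 0.383 after Benjamini-Hochberg adjustment over the 22367 protein-coding genes). The window of Zbtb20, longer because the gene is, spanned 1.23 Mb and held 3 peaks where 3.20 were expected, which is 0.938-fold (adjusted p = 1 by the same exact test). Of all protein-coding genes, 914 were called by this test (4.09%), so that a count of 0 among the 3 genes does not stand apart from that background. The call needed at least 9 peaks.

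Read against the other genes, the counts of Zeb1 and Zeb2 were high without being rare. The median protein-coding gene had 1 peak in its window and 30.1% had none, while 12.7% had 6 or more and 35.3% had 3 or more, as Zbtb20 did. Neighbouring windows share peaks, so the genes are not independent. Peaks also lie in clusters, which the binomial test does not allow for, and the p-values are too small to that extent. The result for Zeb2 depended on the reach of the window. Within 1 Mb of its start site Zeb2 had 13 peaks where 5.18 were expected, a fold of 2.51 that passed (adjusted p = 0.0396, one-sided exact binomial test), as it did for 6.87% of all protein-coding genes at that distance. Of its 7 peaks between 500 kb and 1 Mb, 2 were upstream. Downstream, peaks 3308, 3309 and 3310 lay 812 to 818 kb from the start site, under 5 kb apart and inside another gene, Arhgap15. This reach was not tried with such close peaks joined. At the same reach Zeb1 and Zbtb20 had 7 peaks each, or 1.35-fold (adjusted p = 0.908, exact test).

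**Figure D1:**
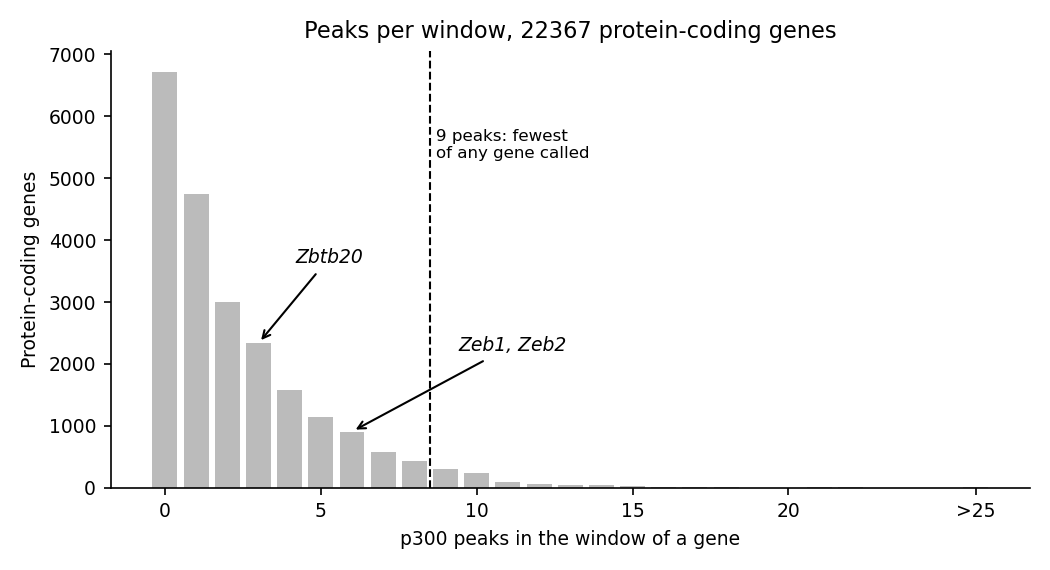
Number of protein-coding genes (vertical axis) by the number of p300 peaks in their window (horizontal axis), for all 22367 genes tested. Zeb1 and Zeb2 stand at 6 peaks and Zbtb20 at 3, left of the dashed line that marks 9 peaks, the fewest of any called gene.

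The 3 genes differed in where the peaks lay. Zeb2 had a peak inside its body and others at 52.6 and 108 kb upstream. At Zeb1 the closest peak was 164 kb away and the whole gene body was empty. At Zbtb20 the only peaks in the gene sat near its far end, 596 and 627 kb from the start site used. Within 100 kb of the start site used there were 2 peaks at Zeb2 and 0 at either of the other genes. A closest peak at least as far as that of Zeb2 was found for 86.4% of protein-coding genes, as far as that of Zeb1 for 63.9%, and as far as that of Zbtb20, 332 kb, for 42.8%. For Zbtb20 these values depend on the start site used. Zbtb20-012, a transcript with an equally long coding sequence, starts 24.2 kb from the peak at 627 kb. Counting 1 start site per gene, that of the gene itself was the nearest protein-coding start for 4 of the 6 peaks of Zeb2. It was so for 0 of the 6 of Zeb1 and for 0 of the 3 of Zbtb20. At Zbtb20 this leaves out other transcripts of the gene, whose start sites were the nearest annotated ones to both peaks in its body. At Zeb2, among annotated starts of any gene type, a start of Zeb2 itself was nearest only to the peak 52.6 kb upstream.

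**Figure D2:**
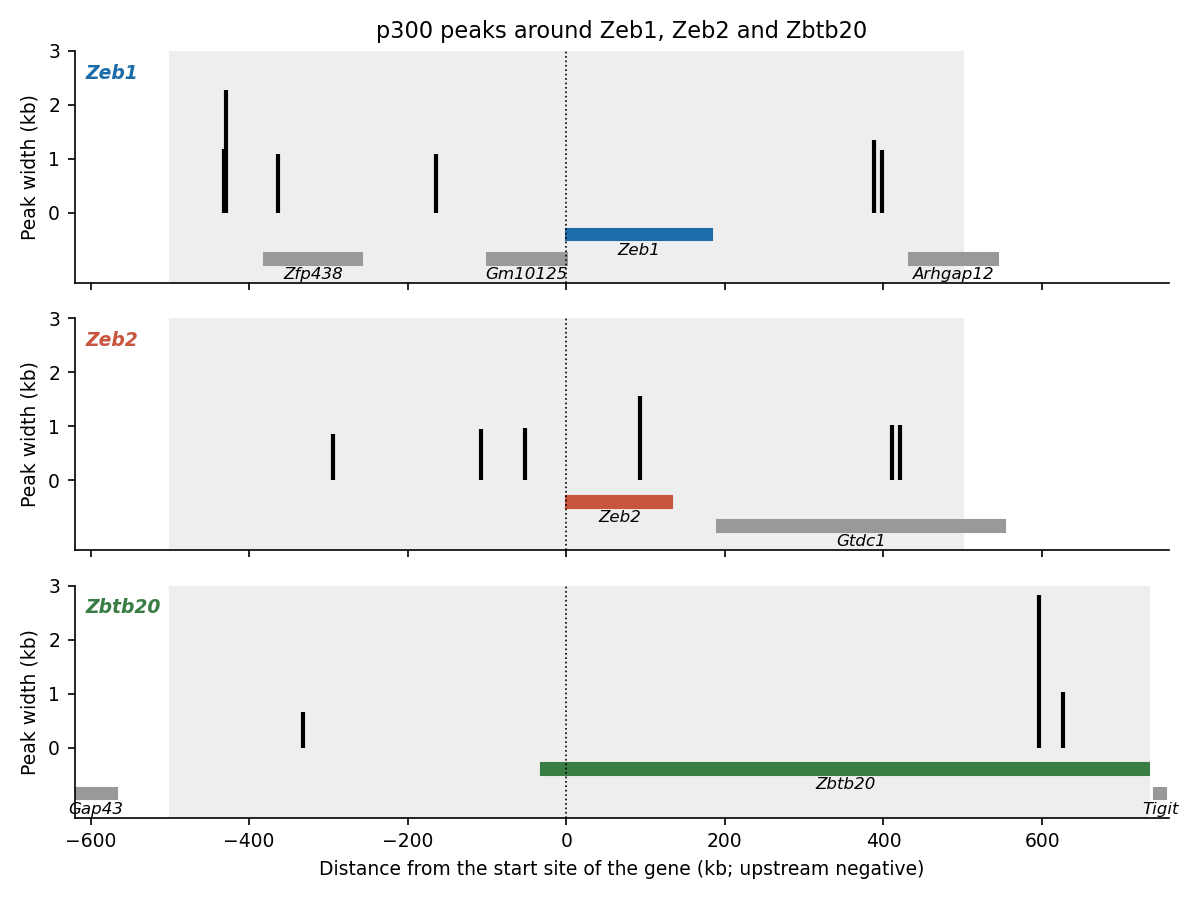
p300 peaks around each gene, drawn by distance from the start site in kb with upstream to the left. Each black line is 1 peak, its height the peak's width in kb, coloured bars are the gene bodies, grey bars the neighbouring protein-coding genes and the shaded band the window. Zeb2 has a peak in its body and 3 upstream, the closest at 52.6 kb, the body of Zeb1 is empty, and Zbtb20 has a tall peak towards its far end.

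Zeb2 (ENSMUSG00000026872) lies on the minus strand of mm9 chromosome 2 from 44839154 to 44972915, a body of 134 kb with 11 exons in the transcript used. Its 6 peaks were 847 to 1566 bp wide. The widest, number 3315, covered 44879078 to 44880643 in intron 3 of Zeb2, 93.1 kb downstream of the start site. Its midpoint was 1.16 kb from the start of AL929120.1, an annotated microRNA gene within the same intron. Of the 1653 protein-coding genes at least as long as Zeb2, 52.1% had no peak in the body, so that 1 peak in a body of this length is near the usual number. Upstream, peak 3316 covered 45024998 to 45025958 at 52.6 kb from the start site, peak 3317 covered 45080510 to 45081450 at 108 kb, and peak 3318 covered 45267088 to 45267934 at 295 kb. All 3 were intergenic and narrower than the median peak of 1017 bp.

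The remaining pair belonged to the gene next door by position. Peaks 3313 (44551721 to 44552750) and 3314 (44561175 to 44562198) were 8.42 kb apart in an intron of Gtdc1, a gene named for a glycosyltransferase-like domain, at 421 and 411 kb downstream of the Zeb2 start site. The start site of Gtdc1 was nearer to both, at 164 and 154 kb. Between 3314 and 3315 a stretch of 317 kb held no peak. Gtdc1 had 7 peaks in its own window, 5 of them shared with Zeb2, and was not called either (fold 2.70, adjusted p = 0.197, one-sided exact binomial test). On the upstream side Zeb2 borders a gene desert. The next protein-coding gene there, Acvr2a, an activin receptor, begins 3.70 Mb away. The desert held 12 peaks where its length predicts 9.58, and 9 of them were beyond the 500 kb limit. The first peaks beyond the limit on either side were 3312, 1840 bp wide at 604 kb downstream, and 3319, 700 bp wide at 676 kb upstream.

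The middle 200 bases of the intronic peak and of the nearest upstream peak are shown because these lie closest to the Zeb2 start site. Both are on the plus strand of mm9, 5′ to 3′, at chr2:44879760-44879959 and chr2:45025378-45025577. Capitals mark matches to any of 7 short motifs described with the motif counts below, here only the Sox-type ACAAAG and its complement CTTTGT.
peak 3315, Zeb2 intron: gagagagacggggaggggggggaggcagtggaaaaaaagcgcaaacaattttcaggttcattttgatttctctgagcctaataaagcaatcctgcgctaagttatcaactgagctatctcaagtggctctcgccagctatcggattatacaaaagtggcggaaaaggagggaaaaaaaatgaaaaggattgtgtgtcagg
peak 3316, upstream of Zeb2: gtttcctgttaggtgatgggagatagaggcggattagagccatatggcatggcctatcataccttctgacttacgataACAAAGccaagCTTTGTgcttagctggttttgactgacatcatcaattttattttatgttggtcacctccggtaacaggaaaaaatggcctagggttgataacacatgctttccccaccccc
The stretch from peak 3315 held 6 CpG dinucleotides and none of the 7 motifs. In the stretch from peak 3316 ACAAAG and CTTTGT faced each other a few bases apart.

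In peak 3313 the E-box CAGCTG occurred 3 times at an even spacing of 61 bases, a feature singled out after the sites were seen. The 3 units of 61 bases centred on these sites run on from each other from 44552071 to 44552253 of chromosome 2, with CAGCTG in capitals.
unit 1: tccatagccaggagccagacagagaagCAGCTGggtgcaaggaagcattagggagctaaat
unit 2: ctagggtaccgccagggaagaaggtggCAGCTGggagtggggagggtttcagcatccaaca
unit 3: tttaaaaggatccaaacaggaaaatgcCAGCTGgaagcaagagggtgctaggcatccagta
Units 1 and 2 had the same base at 26 of 61 positions (42.6%), and units 1 and 3 also at 26. Units 2 and 3 had the same base at 31 (50.8%). These positions include CAGCTG itself, which matches by design because the units were cut to align on it. The share expected between unrelated stretches was not computed, so these values do not show that the units are copies of each other. Of the 496 peaks with at least 3 copies of CAGCTG, 8 (1.61%) had 3 in a row at equal spacing.

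Zbtb20 (ENSMUSG00000022708) lies on the plus strand of mm9 chromosome 16 from 42875994 to 43642715 and is 767 kb long. GENCODE vM1 gives it 21 transcripts with 19 different start sites, and 3 of these transcripts share the longest coding sequence of 2223 bases. The start used, 42907765, is that of the longest of the 3. A shorter annotation of the same name, ENSMUSG00000036279, lies near its far end. Counting 1 start site per protein-coding gene, its start was the nearest to both peaks in the gene, at 117 and 86.4 kb. Other transcripts of Zbtb20 start inside peak 2428 and 24.2 kb from peak 2429. Of the 89 protein-coding genes at least as long as Zbtb20, 13.5% had no peak in the body, the median number was 2, and Zbtb20 had 2.

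Those 2 peaks sat together in intron 9 of the transcript used. Peak 2428 covered 2826 bp from 43502754 to 43505579 and was the 40th widest of all 6629 peaks, so that 0.603% of peaks were as wide. Peak 2429 followed 28.5 kb later, from 43534090 to 43535119, with a width of 1030 bp. Peak 2427 was intergenic, 332 kb upstream from 42575447 to 42576103, and with 657 bp it was among the narrowest, as 95.2% of peaks were at least as wide. Its nearest protein-coding start site was that of Gap43, which encodes a growth cone protein, at 235 kb. Between 2427 and 2428 no peak was found over 927 kb, and 10.5% of the gaps between neighbouring peaks were as long. The nearest peaks beyond the window were 2426 on the upstream side, at 638 kb from the start site, and 2430 on the downstream side, 888 kb past the end of the window. Gap43 had 7 peaks in its own window, of which it shared only 2427 with Zbtb20, and Tigit, an immune receptor gene that lies 6.26 kb past the end of Zbtb20, had 2, both shared. Neither was called (adjusted p = 0.197 and 1, exact test).

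Peak 2428 held annotated start sites of Zbtb20 itself. Of its transcripts 4 begin there, at 43503727, 43503735, 43503755 and 43503810, which is −439 to −356 bp from the midpoint of the peak. Among all peaks 79 (1.19%) held an annotated start site of GENCODE vM1 and 143 (2.16%) overlapped an annotated exon, although the authors had removed such peaks by the UCSC knownGene annotation. Of the 15 peaks, 2428 and one at Zeb1 overlapped an exon. The tied transcripts of equal coding length start 340 and 603 kb further on. Measured from the first of them the gene had 2 peaks and a fold of 0.772, and from the other 2 peaks and a fold of 0.680.

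The sequence at the first of these internal start sites is shown by the 250 bases before it, because this start site remained in the list after the removal of promoter peaks. It is the plus strand of mm9 at chr16:43503477-43503726, with CpG dinucleotides in capitals.
peak 2428, before an internal start of Zbtb20: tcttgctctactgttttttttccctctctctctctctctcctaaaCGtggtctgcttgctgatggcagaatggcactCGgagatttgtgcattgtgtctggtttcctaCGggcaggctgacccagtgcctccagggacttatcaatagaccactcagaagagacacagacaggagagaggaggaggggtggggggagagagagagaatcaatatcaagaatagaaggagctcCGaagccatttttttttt
It had a GC content of 48.8% and 4 CpG dinucleotides in 250 bases. Over the whole peak the GC content was 42.9% and the ratio of observed to expected CpG 0.272, beside a median of 0.228 over all peaks. The middle 200 bases of the widest and of the upstream peak follow, at chr16:43504066-43504265 and chr16:42575675-42575874, with the 7 motifs in capitals.
peak 2428, middle: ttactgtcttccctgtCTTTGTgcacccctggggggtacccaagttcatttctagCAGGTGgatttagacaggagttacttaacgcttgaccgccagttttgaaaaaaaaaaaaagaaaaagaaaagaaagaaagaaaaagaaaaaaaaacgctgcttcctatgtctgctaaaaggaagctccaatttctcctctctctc
peak 2427, upstream of Zbtb20: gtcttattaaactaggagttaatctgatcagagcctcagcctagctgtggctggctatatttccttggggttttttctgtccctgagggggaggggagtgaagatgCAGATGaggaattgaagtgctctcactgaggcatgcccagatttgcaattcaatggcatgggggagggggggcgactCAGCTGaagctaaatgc
The stretch from 2428 carried the ZEB E-box as CAGGTG, the complement of CACCTG, while the stretch from 2427 carried CAGATG and CAGCTG, E-box forms of the Neurod and Neurog factors.

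Zeb1 (ENSMUSG00000024238) lies on the plus strand of mm9 chromosome 18 from 5591858 to 5775465. Its body of 184 kb held 0 peaks, and so did 44.6% of the 1063 protein-coding genes at least as long. All 6 of its peaks were wider than the median peak. Peaks 2804 (5159584 to 5160758) and 2805 (5161752 to 5164031) were only 0.993 kb apart at 432 and 429 kb upstream, and 2.41% of neighbouring peaks in the genome were as close. Peak 2805 was 2280 bp wide, overlapped an exon of the lincRNA gene Gm16954 and was as wide as only 2.22% of peaks. Peak 2806 (5227469 to 5228559) lay 364 kb upstream inside Zfp438, a zinc finger gene, and peak 2807 (5427517 to 5428601) was intergenic at 164 kb. On the downstream side peaks 2808 (5978766 to 5980106) and 2809 (5989470 to 5990629) were 9.36 kb apart at 388 and 398 kb.

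Each of the upstream peaks was nearer to the start site of Zfp438, and both downstream peaks to that of Arhgap12. Zfp438 had 5 peaks in its own window, 4 of them shared with Zeb1 (fold 1.93, adjusted p = 0.684, one-sided exact binomial test), and Arhgap12 had 2, both shared (fold 0.772). Gm10125, a model gene on the other strand that overlaps the first 580 bases of Zeb1, had the same 6 peaks. Between 2807 and 2808, with Zeb1 in the middle, 550 kb held no peak, and 19.9% of gaps were as long. The count of Zeb1 depended on the limit of the window, since within 250 kb it had 1 peak where 1.30 were expected (fold 0.772). Just outside the limit was peak 2803, 728 bp wide at 581 kb upstream, and the next peak downstream was 2453 kb from the start site.

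In base composition the peaks at Zeb1 and Zeb2 stood on opposite sides of the genome-wide median of 45.2% GC. At Zeb1 the peaks held a median of 52.0% GC and 5 of 6 were above the genome-wide median, peak 2806 being the exception at 33.6%. At Zeb2 they had a lowest value of 36.6% and a median of 42.8%, and 0 of 6 were above it. At Zbtb20 they ranged from 42.9 to 48.7%. Peak 2807 at Zeb1 was the richest of the 15 with 57.1%, a value that 3.39% of all peaks reached. In width the 15 ran from 657 to 2826 bp with a median of 1085 bp, and 11 exceeded the genome-wide median of 1017 bp, namely 6 of 6 at Zeb1, 3 of 6 at Zeb2 and 2 of 3 at Zbtb20. Peaks of a locus share their surroundings and are not replicates, so these values are given without a test.

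**Figure D3:**
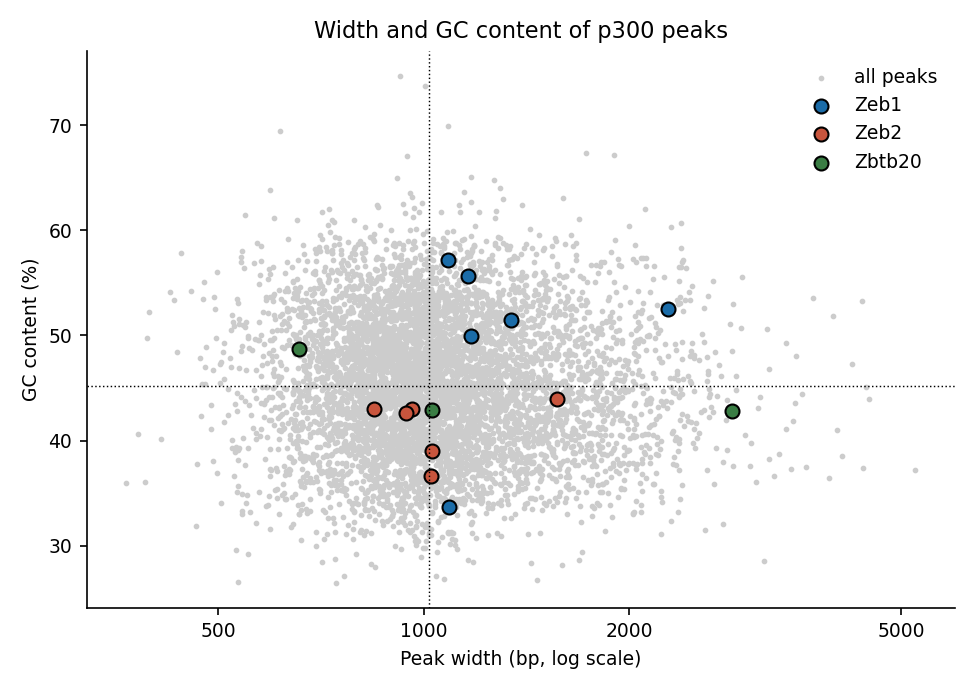
GC content in percent against width in bp (log scale) for all 6629 peaks in grey and the 15 peaks at the 3 genes in colour, with dotted lines at the medians of all peaks. Peaks at Zeb1 lie right of the median width and, but for peak 2806 at 33.6%, above the median GC content, while all peaks at Zeb2 lie below it.

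Short motifs were counted on both strands in the middle 500 bases of every peak, so that all regions compared had the same length. The ZEB E-box CACCTG was present in 4 of the 15 peaks, or 26.7% (exact Clopper-Pearson 95% interval 7.79 to 55.1%), and in 29.9% of all peaks. It was found in 3 of 6 peaks at Zeb1, 1 of 3 at Zbtb20 and 0 of 6 at Zeb2, where the interval reaches to 45.9%. Over the whole length of the peaks 2 at Zeb2 held it, peaks 3314 and 3315 with 1 site each, and peak 2808 at Zeb1 held the most with 3 sites. The E-box forms CATCTG and CAGCTG, which proneural factors such as Neurod and Neurog bind, were each present in 7 peaks (46.7%), beside 57.3 and 39.7% of all peaks. The 3 E-box forms share their outer bases and cannot occupy the same 6 positions.

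For each of the other motifs, too, the interval of the 15 peaks included the share of all peaks in the middle 500 bases. ACAAAG did not keep to this when only the middle 200 bases were searched. The Sox-type ACAAAG was present in 10 of 15 (66.7%, interval 38.4 to 88.2%), beside 40.8% of all peaks. In the middle 200 bases it was present in 8 of 15 (53.3%, interval 26.6 to 78.7%), beside 19.1% of all peaks, a share below the interval. This is 1 of 7 motifs, each searched over 3 lengths, the intervals are not adjusted for that number, and peaks of 1 locus are not independent. TAATTA, the core that LIM and other homeodomain factors recognise, occurred in 1 of 15 (6.67%, interval 0.169 to 31.9%), in peak 2806, beside 31.3%. TTGGCA, part of the Nfi site, occurred in 7 of 15 beside 42.4%, and the POU octamer ATGCAAAT in 1, peak 3317 upstream of Zeb2, beside 7.60%. A match is only a run of letters and does not show that a factor was bound.

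**Figure D4:**
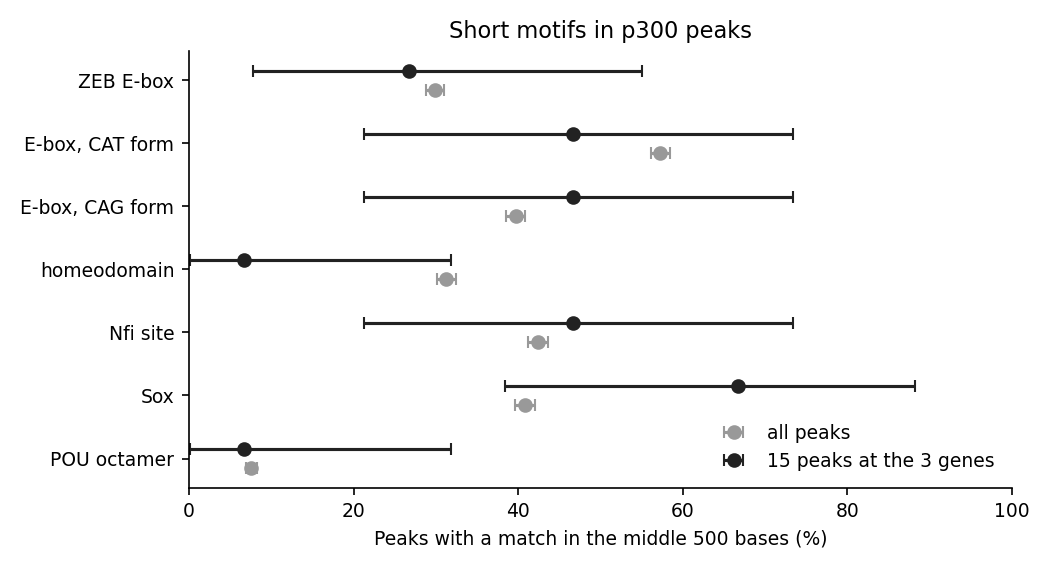
Percent of peaks with a match in their middle 500 bases (horizontal axis) for 7 motifs, in all 6629 peaks (grey) and in the 15 peaks at Zeb1, Zeb2 and Zbtb20 (black). Bars are exact Clopper-Pearson 95% intervals, and each interval for the 15 peaks includes the share of all peaks.

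Among genes related to the 3 factors, 4 were called, and 0 in the list of ZEB target genes. No list had more than 1 call, so each share below rests on 1 gene at most, beside 4.09% of all protein-coding genes. Of 18 genes for ZEB partners, which include the co-repressors Ctbp1 and Ctbp2, SMAD proteins and subunits of the NuRD complex, 1 was called (5.56%, beside 4.09% of all genes). It was Ctbp2, with 9 peaks and a fold of 3.47 (adjusted p = 0.0354, one-sided exact binomial test), 4 of its peaks lying in the gene body, and the call was lost when narrower peaks than the median were dropped (4 peaks, adjusted p = 0.455, exact test), from the most upstream start site (adjusted p = 0.0870, exact test), and in the gene body or the domain between its neighbours alone. Among 11 genes that ZEB proteins are known to repress or control, such as Cdh1 and the cortical signals Ntf3 and Fgf9, 0 were called, and 2 had p under 0.05 before adjustment by the exact test, Inadl with 8 peaks and Pard6b with 6. Cdh1 and Ntf3 had 1 peak each and Fgf9 had 2. The median fold of both lists was 0.772, beside 0.402 for all protein-coding genes.

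The 7 Snail, Scratch and Twist genes bind related E-boxes and act in epithelial to mesenchymal transition or neuronal migration. Of these 1 was called (14.3%, beside 4.09% of all genes), Snai3 with 10 peaks (fold 3.86, adjusted p = 0.0131, exact test). This call was lost with windows of 250 kb or 1 Mb, with close peaks joined, with narrow peaks dropped, and in the gene body or the domain between its neighbours alone. The 37 other genes with a Zbtb name, Zfp238 included, also had 1 call (2.7%). Zfp238, now named Zbtb18, encodes a repressor needed for the maturation of cortical projection neurons. It had 15 peaks (fold 5.79, adjusted p = 1.83e-05, exact test), the closest at 34.8 kb, and the call was lost within 250 kb (4 peaks, adjusted p = 0.515, exact test), in the domain between its neighbours (3 peaks, adjusted p = 1, exact test) and in the gene body alone (0 peaks). Of the 9 zinc finger homeobox genes, 1 was called (11.1%). It was Adnp, a neuroprotective chromatin factor, with 11 peaks (fold 4.25, adjusted p = 0.00503, exact test), of which 6 also lay in the window of Pard6b. Adnp was not called within 250 kb (adjusted p = 0.0697, exact test) or with narrow peaks dropped (adjusted p = 0.192, exact test). Nor was it called in the gene body or the domain between its neighbours alone. Medians for these 3 lists were 2, 3 and 4 peaks, beside 1 for all genes. In the Zbtb and zinc finger homeobox lists some genes are neighbours that count the same peaks, so they are not independent. Zbtb8a, Zbtb8b and Zbtb8os share 4, Zbtb34 and Zbtb43 share 7, and Zhx1 and Zhx2 share 4. With 6 peaks, Zeb1 and Zeb2 had more than the median of each list, and Zbtb20 had as many as the median of the other Zbtb genes.

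**Figure D5:**
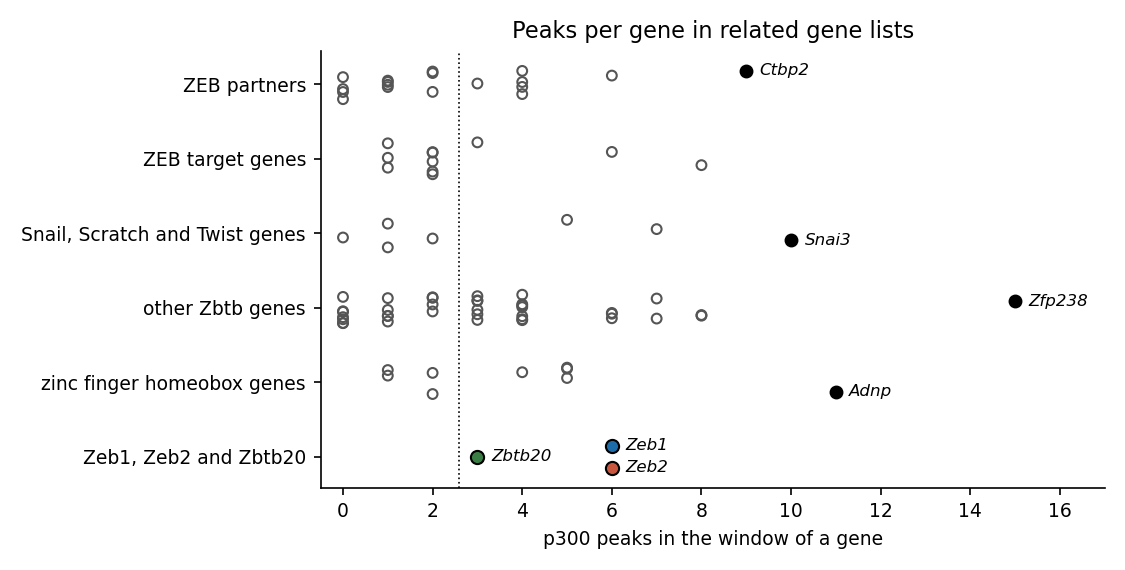
Number of p300 peaks in the window (horizontal axis) of each gene in 5 related lists and of Zeb1, Zeb2 and Zbtb20. Filled black points are genes called over window length, open points are genes not called, points are spread vertically for legibility, and the dotted line marks the genome-wide 2.59 peaks per Mb. Ctbp2, Snai3, Zfp238 and Adnp were called, at 9, 10, 15 and 11 peaks.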

How the data were processed

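p300 ChIP-seq was performed by the authors on E14.5 neocortical tissue, using 30 µg of chromatin and 4 µg of antibody. The authors aligned reads of 36 bp to mm9 with ELAND, keeping unique hits with 2 mismatches at most, and called peaks against input with MACS (1.4 as named in the submitters' processing notes) at a fixed shift of 100 bp. The deposited values are peak start and end positions, without scores or counts, and peak width was the one property by which a smaller list could be drawn. No file of the input library was used here.

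Start sites came from GENCODE vM1 on NCBIM37, the assembly of mm9, with ties in coding length going to the longer transcript. Midpoints per window were compared with the assembled bases of the window (exact binomial test, one-sided, with Benjamini-Hochberg adjustment over 22367 protein-coding genes, called at adjusted p below 0.05 and fold above 1). The code was tested on simulated peaks. Of genes beside the 3, those named are the nearest protein-coding neighbours, genes nearest to at least 3 peaks, and the called genes of each list with the most peaks. Others, such as Inadl, Cdh1 and the repeated E-box, were picked after their values were seen. Members, lists and tests were chosen with earlier results of these data known. Promoter sequences of a later build and protein sequences were not used here. Python 3.11.15, numpy 2.4.6, pandas 2.3.3, scipy 1.17.1, pysam 0.24.0 and matplotlib 3.10.9 were used.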

Additional observations from a re-analysis of the deposited data

How the results depend on the processing

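No paired analysis was possible because there is 1 library of each kind. The fold of Zeb1, 2.32, fell below 1 with a window of 250 kb (0.772) and with the gene body alone (0), and that of Zeb2 passed the threshold only at 1 Mb (2.51). The fold of Zbtb20, 0.938, rose above 1 at 1 Mb (1.35), in the gene body alone (1.01), with peaks under 5 kb apart joined (1.02) and with narrower peaks than the median dropped (1.25), and fell to 0.386 (1 peak) when peaks in the gene body beyond 500 kb were left out, without a call under any of these. With only the wider peaks Zeb1 reached 4.62 and was not called (adjusted p = 0.0672, one-sided exact binomial test). Of 34 alternatives for the 3 folds, 1 was called. The start sites of other transcripts with equally long coding sequence, added after the data were seen, changed no direction or call of the folds. At Zbtb20 the distance to the closest peak did depend on that choice.

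The number of protein-coding genes called, 914, became 468 at 250 kb, 1537 at 1 Mb, 49 in gene bodies, 515 with close peaks joined, 459 with the wider peaks and 252 with domains between protein-coding genes, and among all annotated genes 1573 of 37273 were called. At 250 kb the called genes fell to 0 among the Snail, Scratch and Twist genes, among the other Zbtb genes and among the zinc finger homeobox genes. Each of these lists had 1 call at 500 kb, and at 250 kb 468 of all 22367 protein-coding genes were called. At 1 Mb 2 of 11 ZEB target genes and 4 of 37 other Zbtb genes were called, beside 6.87% of all protein-coding genes. With close peaks joined 0 of 7 Snail, Scratch and Twist genes were called, beside 515 of all 22367 protein-coding genes. In the middle 200 bases the share of the 15 peaks with CACCTG was 6.67% (14.1% of all peaks) and with CATCTG 20% (36.3%), with less sequence searched, while ACAAAG was in 53.3% (19.1% of all peaks). The causes of the other changes were not tested. With 3 to 6 peaks a gene and no peak scores, only large departures from the expected number could pass.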
